A study of Mus musculus with 12 samples.

Results

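The proteasome subunit genes were taken as every entry of the deposited table whose RefSeq transcript belongs to a mouse gene named Psma, Psmb, Psmc or Psmd followed by a number. This gave 39 genes among 19708 entries: 8 Psma, 11 Psmb, 6 Psmc and 14 Psmd genes, each with 1 entry. Psmc3ip, which only shares the first letters, was not taken. Transcript 3′ ends had been sequenced from mouse ESCs (embryonic stem cells) and EBs (embryoid bodies) of C57BL/6 background, in a wild type (WT) form and in a Mettl3 knockout (KO). Mettl3 encodes the catalytic subunit of the enzyme that writes N6-methyladenosine (m6A) on messenger RNA. The ESCs grew without serum in N2B27 with LIF and the inhibitors CHIR99021 and PD0325901, and the EBs were clumps of differentiating cells made from ESCs in non-adherent plates with serum. The labels put the EBs at between 8 and 21 days. They give neither the knockout allele nor the number of knockout clones. Every condition was sampled at 0, 4 and 8 h after actinomycin, which stops transcription, so the untreated state of a condition is its 0 h library. The 12 groups hold 1 library each, and levels given in threes below are those of 0, 4 and 8 h in that order.

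The proteasome degrades proteins tagged with ubiquitin. Its 20S core is a barrel of stacked rings, with the Psma products (alpha subunits) in the outer rings, which gate entry, and the Psmb products (beta subunits) in the inner rings. Psmb5, Psmb6 and Psmb7 carry the proteolytic sites, and Psmb8, Psmb9 and Psmb10 are their interferon-inducible counterparts in the immunoproteasome, while Psmb11 takes the place of Psmb5 in the thymic cortex. The 19S regulatory particle is built from the Psmc products, a ring of ATPases that unfolds substrates, and from most Psmd products. Some of these Psmd products bind ubiquitin or cut it off, and others are structural. Psmd5, Psmd9 and Psmd10 encode chaperones that help to assemble the ATPase ring and are not part of the finished particle. Pluripotent cells are known for high proteasome activity.

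Column totals of the deposited signal ran from 3673848 in the 8 h WT EB library to 11086748 in the 8 h KO ESC library, and totals were lower at each later time in both EB genotypes. The libraries hold an inferred 208874 to 666805 read equivalents, where the level taken for 1 read is a common low value of the library. Some deposited values lie below that level, such as 22.9 for Irf1 in the 8 h WT ESC library, where it is 32.7. It may thus not be a true single read, and counts and counting intervals that rest on it are approximate. The proteasome genes together made up between 0.819% and 1.29% of a column total. Mettl3 itself stood at 251, 64.8 and 113 in WT ESCs, while the KO ESCs had 98.1, 65.4 and 41.8. Its levels were 175, 86.0 and 77.4 in WT EBs, while the KO EBs had 16.8, 40.7 and 83.9. The ranges overlapped between genotypes, and because the deleted part is not given in the labels, a 3′ tag does not check the knockout. The 10 pluripotency markers summed to 46909 to 79014 in ESC libraries and to 9415 to 35268 in EB libraries. The 10 visceral and definitive endoderm markers summed to 5140 to 8673 in the WT EB libraries, 366 to 589 in those of KO EBs and 561 to 1031 in those of ESCs. The 6 parietal endoderm markers summed to 16950 to 22928, 1766 to 2257 and 4524 to 5719 in the same order. The WT and KO EBs therefore differed in endoderm markers, and the part of this in any EB difference below was not tested. In bulk RNA, fewer cells of a type and less RNA per cell cannot be told apart.

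Before actinomycin, the most abundant member was Psma7 in WT ESCs (8179.6) and WT EBs (7801) and the ubiquitin receptor gene Psmd4 in KO ESCs (8089) and KO EBs (4373). Psmb8, Psmb9 and Psmb11 were the least abundant in each untreated condition. The libraries were made from transcript 3′ ends, so the levels of different genes are set side by side as deposited, without dividing by length. How the ends were counted is not stated, so the order of genes is that of the deposited signal. Over all 12 libraries, treated ones included, the highest mean levels belonged to Psma7 at 7711, Psma2 at 5648 and Psmb6 at 5407. The lowest above 0 were Psmb11 at 8.29, Psmb8 at 11.8 and Psmb9 at 69.9.

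**Figure D1:**
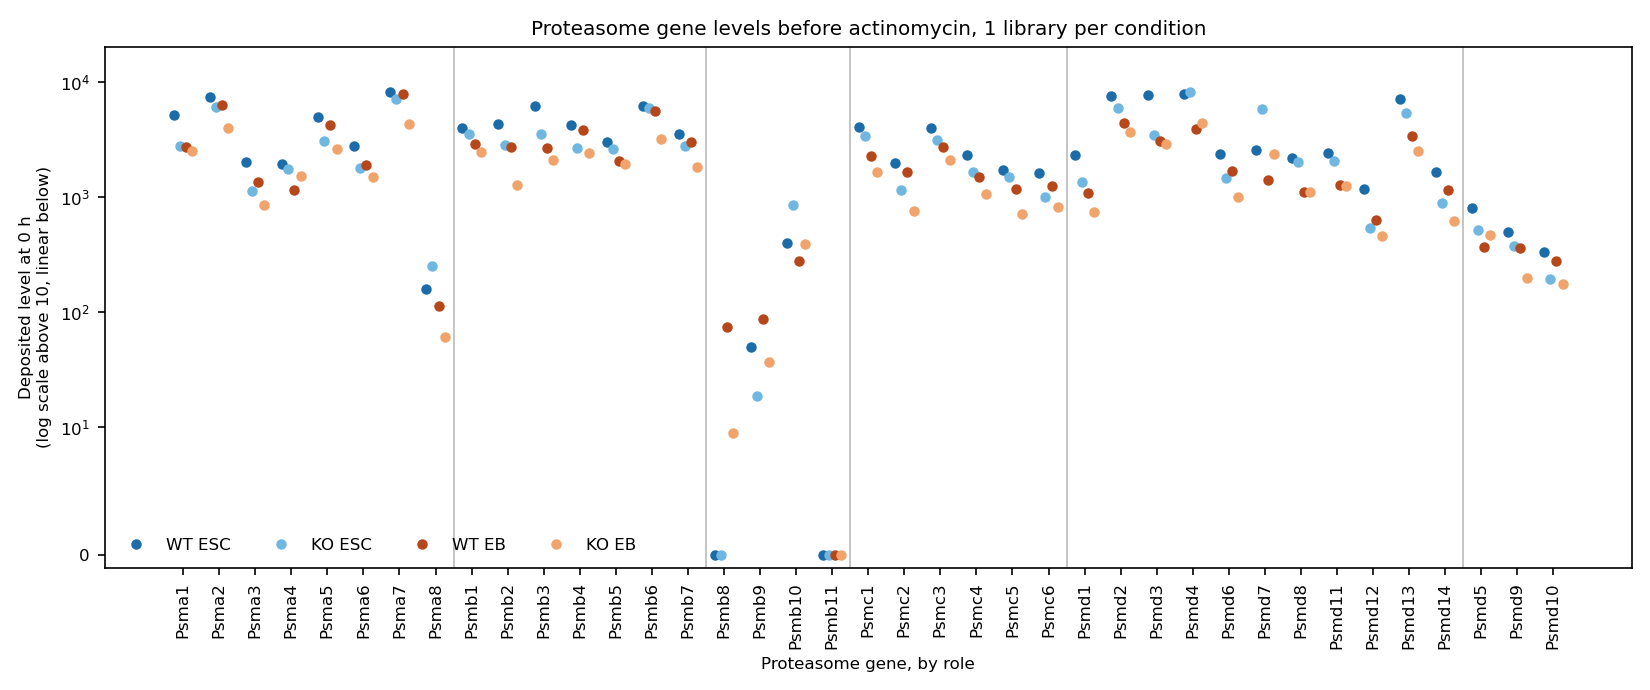
Deposited levels of the 39 proteasome genes at 0 h, grouped by role, with 1 point per library (WT ESC, KO ESC, WT EB, KO EB). The axis is logarithmic above 10 and linear below. Core and regulatory particle genes mostly sit well above Psmb8, Psmb9, Psmb11 and the germ-cell alpha gene Psma8.

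Among the alpha genes, Psma7 read 8179.6, 13368 and 13782 in WT ESCs, 7022, 8993 and 9889 in KO ESCs, 7801, 7056 and 2824 in WT EBs, and 4248, 5209.7 and 4162 in KO EBs. Untreated KO ESCs were within the range of WT EBs for Psma7, and the other ESC libraries were above all EB libraries. Psma2 read 7326, 9112 and 9014 in WT ESCs, 6071, 7679 and 6959.7 in KO ESCs, 6298, 3809.6 and 1824 in WT EBs, and 3928, 3122 and 2638 in KO EBs. Its untreated WT EB library was within the ESC range and the treated ones below it. Psma5 read 4927, 5989 and 4468 in WT ESCs, 3033, 6038 and 4800.4 in KO ESCs, 4239, 2305 and 876 in WT EBs, and 2595, 2389.7 and 2066 in KO EBs. Here the WT EB values were far apart from 0 to 8 h, while the KO EB values lay close together. Psma3 read 2011, 2250.0 and 2320.0 in WT ESCs, 1126, 1316 and 2146 in KO ESCs, 1349.8, 751 and 433 in WT EBs, and 842, 1047 and 624 in KO EBs. Psma6 ranged from 585 in the 8 h WT EB library to 3265 in the 4 h WT ESC library. Psma8, which replaces Psma7 in male germ cells, read 158, 116 and 147 in WT ESCs, 251, 87.7 and 85.8 in KO ESCs, 112, 174 and 93.6 in WT EBs, and 60.9, 94.0 and 77.5 in KO EBs. For Psma8 all KO EB values were below all WT ESC values, and the other pairs of conditions overlapped.

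Of the constitutive catalytic genes, Psmb6 read 6194, 9663 and 6969.8 in WT ESCs, 5952, 6965 and 6954 in KO ESCs, 5529, 4441 and 2066 in WT EBs, and 3176, 3381 and 3590.4 in KO EBs. Its ESC libraries were all above its EB libraries. Psmb7 read 3499, 5219 and 4199.6 in WT ESCs, 2773, 3426 and 4043 in KO ESCs, 2962, 1732 and 1153 in WT EBs, and 1804, 1726 and 1644 in KO EBs. Psmb5 read 2971, 3377 and 2658 in WT ESCs, 2619, 3612 and 3599 in KO ESCs, 2057, 1342 and 596 in WT EBs, and 1919, 1794 and 1684 in KO EBs. WT and KO ESCs overlapped for all 3 catalytic genes. Among the structural beta genes, Psmb4 read 4219.7, 5852 and 5176 in WT ESCs, 2646, 4218 and 4268 in KO ESCs, 3774, 2461 and 1228 in WT EBs, and 2419, 2061 and 1895 in KO EBs. Psmb1 ran from 835 to 4762 and Psmb2 from 1189 to 4578, in each case lowest in WT EBs at 8 h and highest in WT ESCs at 4 h.

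In the regulatory particle, the ATPase genes Psmc1, Psmc3, Psmc4 and Psmc5 were each lowest in the 8 h WT EB library, at 836, 1100.0, 616 and 346. Their highest levels were 5827 and 2431 for Psmc1 and Psmc4, in WT ESCs at 4 h, and 3982 and 1695 for Psmc3 and Psmc5, in WT ESCs at 0 h. The scaffold genes Psmd1 and Psmd2 ran from 364 to 2292 and from 2117 to 9099. Psmd4, a ubiquitin receptor, ran from 1492 to 8089, and Psmd14, the enzyme that cuts ubiquitin chains off the substrate, from 225 to 1641. Psmd8, Psmd11 and Psmd13, structural lid genes, ran from 685 to 2543, from 363 to 2401 and from 1669.5 to 7105. All of these were lowest in the 8 h WT EB library, the library with the smallest column total. The chaperone gene Psmd10 ran from 87.9 in the same library to 533 in WT ESCs at 4 h.

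Loss of Mettl3 in ESCs went with a higher level of 1 proteasome gene, Psmd7, and with lower levels of Psmd6, Psmd3 and Psma1. The level here is the mean log2 level over 0, 4 and 8 h, tested with limma over all genes. The other 33 of the 37 tested genes did not pass, with 13 in all (35.1%) at an unadjusted p under 0.05, beside 27.8% of all genes. Over all 12704 genes tested, 14.1% were called, 10.9% higher and 3.27% lower, so the 4 calls among 37 are near that background. The direction among the members differed from that of all genes: 30 of the 37 differences were negative and the median was -0.37 (log2), beside 0.18 for all genes.

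**Figure D2:**
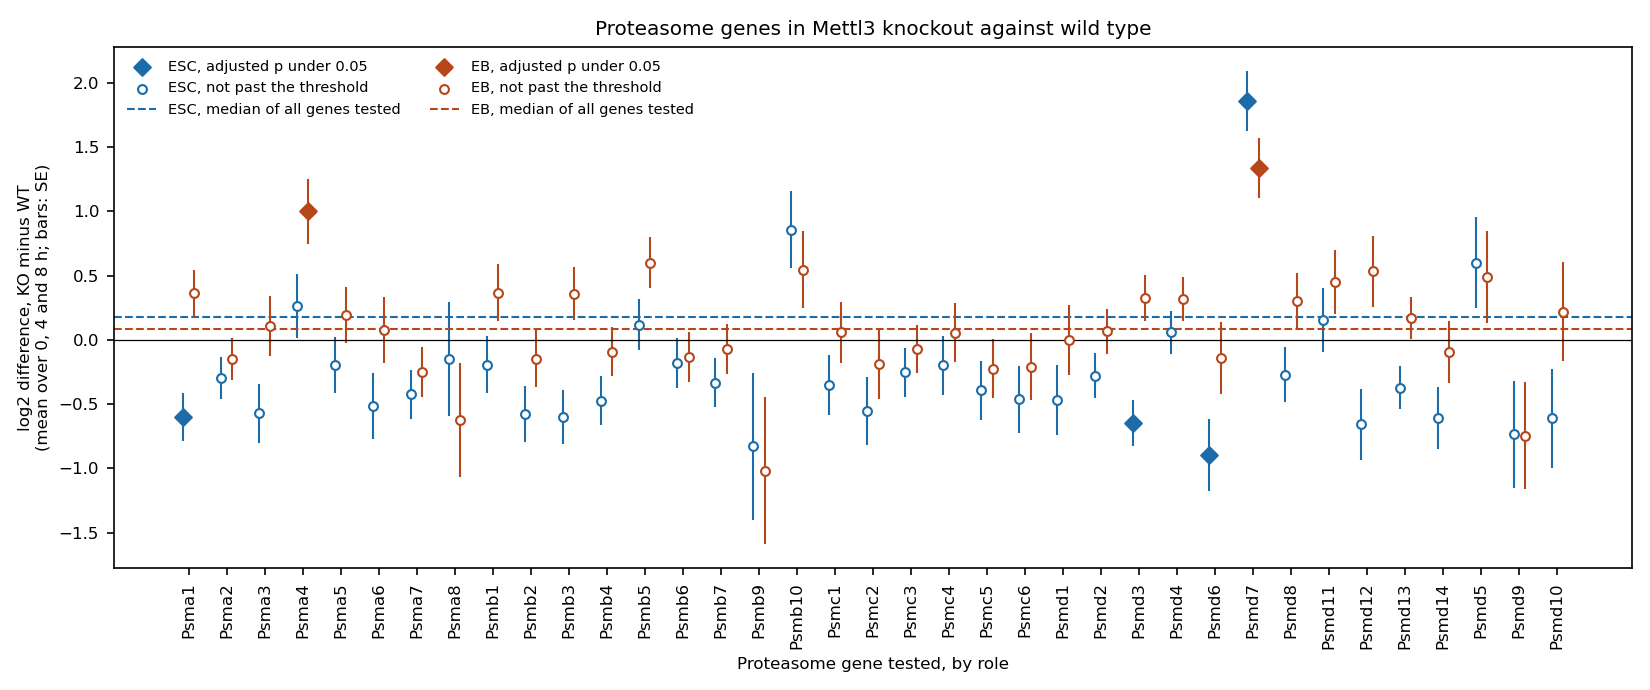
Log2 difference of level between KO and WT for the 37 tested proteasome genes, in ESCs (blue) and EBs (red), with limma standard errors as bars and diamonds for adjusted p under 0.05; dashed lines are the medians of all genes. Psmd7 lies above the other members in both cell types, and most ESC points lie below the all-gene line.

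The size of the lower calls was moderate. Psmd6, a lid subunit, read 2359, 3091 and 1738 in WT ESCs, against 1462, 1332 and 1003 in KO ESCs. Psmd3, another lid subunit, read 7695, 6485 and 5624 in WT ESCs and 3449, 4781 and 4406 in KO ESCs, and Psma1 read 5109.6, 6169.9 and 5256 against 2743, 4116 and 4197. For all 3 genes every KO ESC library was below every WT ESC library. The log2 differences were -0.90 ± 0.28 (SE, adjusted p = 0.046) for Psmd6, -0.65 ± 0.18 (adjusted p = 0.0247) for Psmd3 and -0.60 ± 0.18 (adjusted p = 0.0413) for Psma1. These calls were lost in 11, 8 and 15 of 23 alternatives, and leaving out any 1 ESC library reduced the 4 calls to 1, or to 2 without the 4 h KO library. Without its 0 h or 8 h library, the level of a condition is that of its 4 h library alone and less precise. With median-ratio scaling 1 gene was higher and 9 lower, and with scaling to ribosomal protein genes 2 were higher and 3 lower.

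The ranges of the genotypes were compared as well. In 11 of 37 genes all KO ESC libraries were below all WT ESC libraries, beside 8.12% of all genes. Besides the 3 called genes these were Psma6, Psmb2, Psmb3, Psmc2, Psmd8, Psmd12, Psmd13 and Psmd14. Psmb3 read 6190.0, 6371 and 6727 in WT ESCs and 3515, 4519 and 4771 in KO ESCs, a log2 difference of -0.60 ± 0.21 (adjusted p = 0.0685). Psmd12 read 1175, 1404 and 975 against 534, 927 and 818. Above the WT range were Psmd7 and Psmb10, beside 14.8% of all genes. At 0 h alone 33 of 37 genes were lower in KO ESCs, where 48.2% of all genes were, and the median was -0.41 beside 0.03. It was -0.44 beside 0.23 at 4 h and -0.20 beside 0.26 at 8 h. The difference was spread over the complex: class medians were -0.36 for alpha, -0.33 for constitutive beta, -0.37 for ATPase and -0.37 for non-ATPase genes.

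Psmd7 stood apart from the rest of the lid. It encodes the lid subunit that pairs with Psmd14 and itself lacks catalytic activity, and it lies at chr8:107580380-107588482 (GRCm38). Psmd7 read 2554, 1712 and 556 in WT ESCs, against 5732, 4642 and 4459 in KO ESCs. Its EB levels were 1397, 912 and 270.2 in WT, against 2356, 1859 and 1300.5 in KO. Every KO ESC library was above every WT ESC library, while in EBs the ranges overlapped, the 8 h KO library being below the untreated WT library. The approximate 95% counting intervals at 8 h were 324 to 890.4 for WT and 3807 to 5190 for KO ESCs. In EBs they were 152 to 443 for WT and 1068 to 1569 for KO. The log2 difference between KO and WT ESCs was 1.86 ± 0.23 (adjusted p = 0.000135, 95% interval 1.36 to 2.36).

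**Figure D3:**
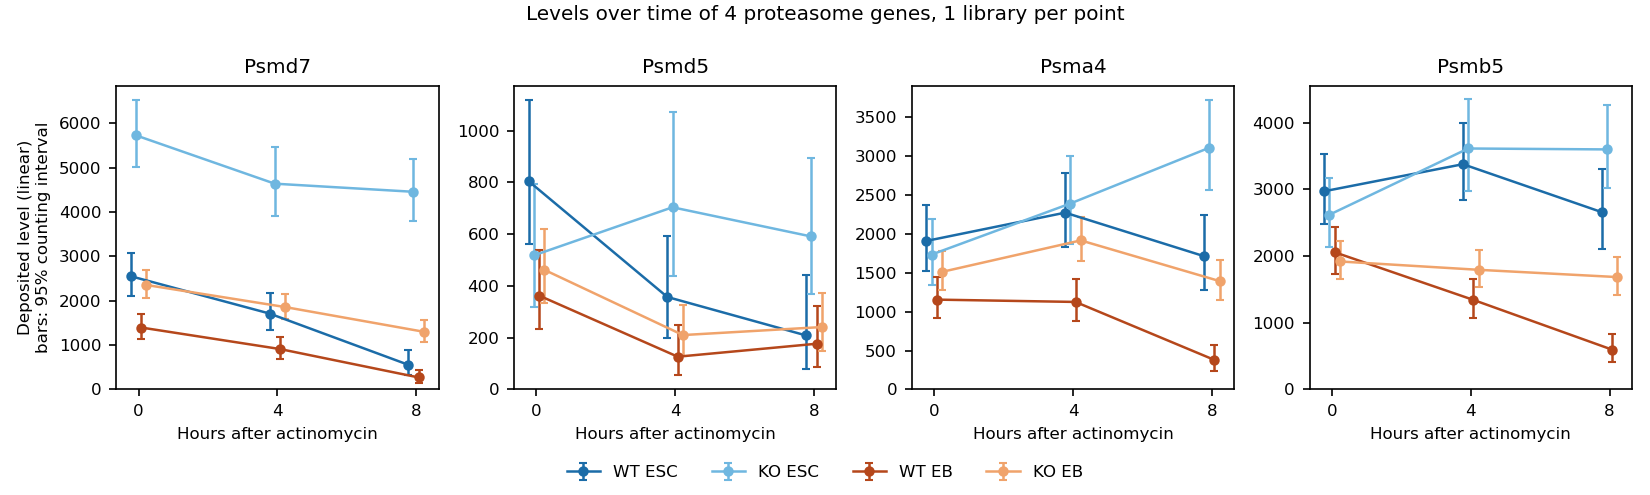
Deposited levels of Psmd7, Psmd5, Psma4 and Psmb5 against hours after actinomycin, 1 point per library in each of the 4 conditions. Bars are approximate 95% Poisson intervals that rest on the inferred level of 1 read and cover counting error only. The KO ESC line of Psmd7 stays at 4459 or above while the WT ESC line ends at 556.

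The gap in Psmd7 was there at 0 h and wider later. Single-library log2 differences between KO and WT ESCs were 1.16 at 0 h, 1.43 at 4 h and 2.98 at 8 h, and between KO and WT EBs 0.75, 1.02 and 2.23. After 8 h, 21.8% of the untreated level was left in WT ESCs and 77.8% in KO ESCs, with 19.3% in WT EBs and 55.2% in KO EBs. In both WT conditions Psmd7 had the smallest share left of all tested members, although 12.2% and 12.9% of all genes had less. Under the 3 other scalings the WT share was again below the KO share within each cell type. It was 18.2% to 29.2% in WT against 58.3% to 83.7% in KO ESCs, and 41.7% to 46.0% against 53.0% to 68.3% in EBs. The EB gap was thus narrower there, and WT ESCs rather than WT EBs had the smallest share. The slope itself differed between KO and WT ESCs by 0.23 ± 0.07 log2 per hour, which did not pass after adjustment (adjusted p = 0.264). The call for the level in ESCs was kept in 22 of 23 alternatives, from 0.95 to 2.03. It was lost when the level was read at 0 h on the lines fitted over all 3 times (0.95, limma adjusted p = 0.301). Psmd7 also had the steepest mean slope among the members, -0.18 ± 0.03 per hour (adjusted p = 0.000236).

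The m6A mark is placed within a short motif of which GGACT is the best known form, and m6A itself was not measured here. The Psmd7 transcript holds 3 matches to GGACT, all in its coding sequence, at positions -570, -410 and -366 counted from the first base of the stop codon. Taken from the GENCODE transcript of GRCm38, they are shown with their flanks because Psmd7 is the member with the largest difference between genotypes, with the match in capitals. The genome positions, all on the minus strand of GRCm38, are chr8:107584213-107584217, chr8:107581292-107581296 and chr8:107581248-107581252.
Psmd7 at -570: ccaaaggacctaGGACTtcccaccgaagcc
Psmd7 at -410: acactacagtggGGACTctctcccagcgga
Psmd7 at -366: catggcttgaagGGACTgaactccaagctc
The number of matches did not set Psmd7 apart: Psmd5 and Psmd6 hold 3 as well, while Psma1 and Psma4 hold 0. At least 1 GGACT was found in 31 of 37 members (83.8%), beside 92.4% of 12424 tested genes with a transcript sequence. The members' transcripts are also shorter, with a median of 1512 bases beside 3024, and per kilobase they held 1.22 matches beside 1.09. Within 200 bases of the stop codon 14 members (37.8%) had a match, beside 40.1% of the genes. A match is not evidence of a methylated site.

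In EBs, loss of Mettl3 went with higher levels of Psmd7 and Psma4 and with no lower call. Over all genes 9.22% were called, 7.66% higher and 1.56% lower, so 2 of 37 is below that background. The median difference of the members was 0.07 (log2), beside 0.09 for all genes. For Psmd7 the difference was 1.33 ± 0.23 (adjusted p = 0.0019), and the test of the difference between cell types, EB effect minus ESC effect, gave -0.53 ± 0.33 (adjusted p = 0.473). Psma4, an alpha ring gene at chr9:54950781-54958034, read 1154, 1124 and 379.6 in WT EBs and 1511, 1915 and 1393 in KO EBs. All its KO EB libraries were above all its WT EB libraries, and Psma4 was the only member with such a gap, beside 9.58% of all genes, while 0 members had the reverse gap, beside 7.40%. The log2 difference of Psma4 was 1.00 ± 0.25 (adjusted p = 0.02). In ESCs it read 1908, 2272 and 1713 in WT and 1733, 2389 and 3105 in KO, which overlap. Psmb5 followed in EBs with 0.60 ± 0.20 (adjusted p = 0.0769).

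The EB result changed with the time, the libraries and the scaling used. At 0 h alone 31 of 37 members were lower in KO EBs, where 60.0% of all genes were, with a median of -0.49 beside -0.18. At 4 h the median was 0.05 beside 0.11, and at 8 h 0.70 beside 0.38. With ribosomal protein scaling 1 member was higher and 4 lower, while with equal column totals both calls were kept. Leaving out the 0 h or the 8 h library of either EB genotype removed both calls, and leaving out the 4 h KO EB library removed that of Psma4. With a 0 h or 8 h library left out, the level of that condition is its 4 h library alone, a different and less precise quantity. Psmd7 kept its call in 15 of 23 alternatives and Psma4 in 12.

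The effect of Mettl3 loss differed between EBs and ESCs for 0 of 37 members by limma's interaction term, where 2.86% of all genes were called, 1.50% higher and 1.35% lower. At an unadjusted p under 0.05 there were 5 members (13.5%), beside 16.0% of all genes. Nearest were Psmd3, with 0.97 ± 0.25 (adjusted p = 0.053), Psma1, with 0.96 ± 0.26 (adjusted p = 0.0652), and Psmd12, with 1.19 ± 0.39 (adjusted p = 0.131). In EBs Psmd3 read 3076, 2575 and 1419 in WT and 2885, 2796 and 2753 in KO, Psma1 2715, 1679 and 1351 against 2511, 2284 and 2283, and Psmd12 631, 371 and 177 against 457, 610.2 and 466. In each of the 3 genes the EB genotypes overlapped, unlike the ESC genotypes. The members' median interaction was 0.38, beside -0.05 for all genes. Without the 4 h WT EB library 2 members were called.

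Proteasome transcripts were lower in EBs than in ESCs in both genotypes on the deposited scale. In WT, 33 of 37 genes were lower and 0 higher, where 32.6% of all genes were called, 3.49% higher and 29.1% lower. The member median was -1.25 (log2), beside -0.50 for all genes. All 7 constitutive beta genes, all 6 ATPase genes, all 11 non-ATPase genes and 7 of 8 alpha genes were called, and 1 of 3 chaperone genes. Psmb3 differed most, at -1.78 ± 0.21 (adjusted p = 2.07e-05), with 2652, 2509 and 981 in WT EBs against 6190.0 to 6727 in WT ESCs. Psmd12 followed at -1.73 ± 0.28 (adjusted p = 0.000255), then Psma1 at -1.58 and Psmd3 at -1.54. The 4 genes not called were Psma8 (-0.18), Psmb9 (0.53), Psmd5 (-0.93, adjusted p = 0.0562) and Psmd9 (-1.07, adjusted p = 0.0629). In 31 of 37 genes every WT EB library was below every WT ESC library, beside 23.6% of all genes, and in 0 genes every one was above, beside 5.88%.

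In KO, 27 of 37 genes were lower in EBs and 0 higher, where 24.1% of all genes were called, 0.929% higher and 23.2% lower. The median was -0.89, beside -0.61 for all genes. The largest KO differences were those of Psmb10, at -1.71 ± 0.30 (adjusted p = 0.00192), and Psmd7, at -1.46 ± 0.23 (adjusted p = 0.00131). In 29 genes the KO EB libraries were all below the KO ESC libraries, beside 36.8% of all genes, and in 0 all above, beside 3.53%. Leaving out the 0 h or the 8 h KO EB library reduced the 27 calls to 2, and leaving out the 0 h or the 8 h KO ESC library reduced them to 11 or 10. In each of these fits the level of that condition is its 4 h library alone, a different and less precise quantity than the mean over the hours. The pluripotency marker sums were lower in EBs too, as given above, and their part in this was not tested.

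Counts of lower genes depended on how columns were scaled, because scaling moved the median of all genes. From -0.50 in WT, the all-gene median went to 0.40 with equal column totals, 0.18 with median-ratio scaling and 0.40 with ribosomal protein scaling, and the members' median from -1.25 to -0.35, -0.57 and -0.35. The lower calls in WT went from 33 to 6, 14 and 7. In KO the all-gene median went from -0.61 to 0.08, 0.06 and -0.21, the members' median from -0.89 to -0.21, -0.22 and -0.51, and the lower calls from 27 to 0, 0 and 9. Under each of the 4 scalings the members' median was below that of all genes in both genotypes. Psmd3 kept its WT call in 23 of 23 alternatives. At 0 h alone the WT median was -0.55 beside -0.29, with 36 of 37 genes lower where 63.3% of all genes were, and the KO median -0.62 beside -0.53, with 36 of 37 lower where 74.7% of all genes were. Read at 0 h on the fitted lines, with its error, the level difference was called for 1 gene in WT and 0 in KO.

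**Figure D4:**
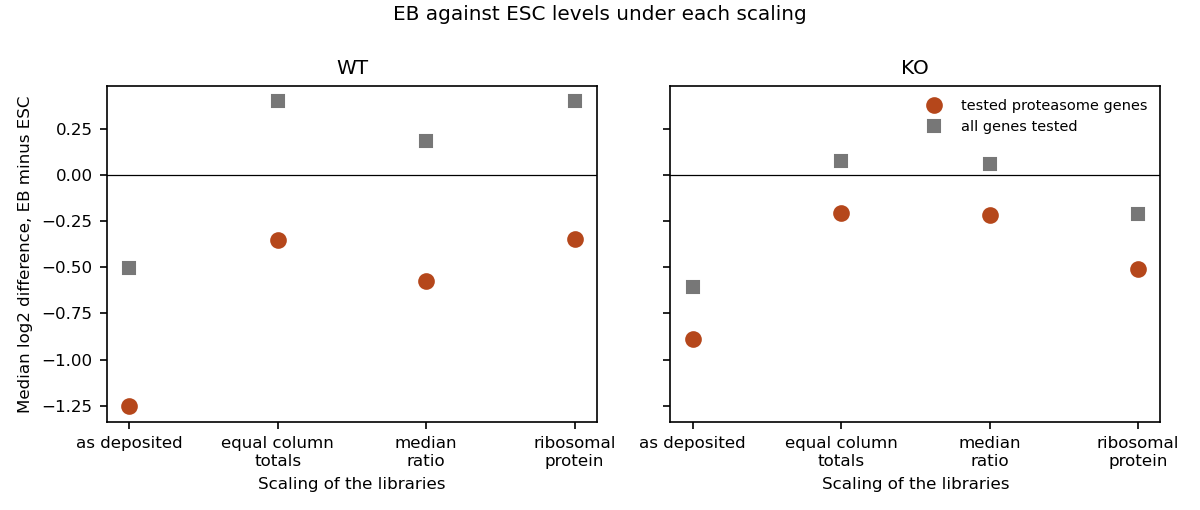
Median log2 difference between EBs and ESCs of the 37 tested proteasome genes and of all genes tested, under the deposited scale and the 3 other scalings, with WT and KO in separate panels. The proteasome median lies below the all-gene median under every scaling, while both move up when the columns are rescaled.

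Beside all genes, the proteasome transcripts had a higher median share left 8 h after actinomycin in both ESC genotypes. Their median was near that of all genes in KO EBs and below it in WT EBs. The shares that follow are on the deposited scale. The median share of the 0 h level left at 8 h was 90.6% in WT ESCs, beside 76.4% for all genes, and 115% in KO ESCs, beside 93.3%. It was 36.2% in WT EBs, beside 49.0%, and 81.5% in KO EBs, beside 83.0%. A share at or above 100% was seen in 13 of 37 genes in WT ESCs, 24 in KO ESCs, 1 in WT EBs and 10 in KO EBs, where 35.4%, 45.7%, 23.2% and 35.3% of all genes had one. A share depends on how the columns were scaled and gives no half-life. This order depended on the scaling. With equal column totals the member median was 81.9% in WT EBs, still the lowest of the 4 conditions, beside 99.3% in WT ESCs, and with ribosomal protein scaling it was 86.0% in WT EBs, the highest of the 4, beside 75.7% in WT ESCs, 85.9% in KO ESCs and 78.2% in KO EBs. The WT EB totals were themselves lower at each later time.

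**Figure D5:**
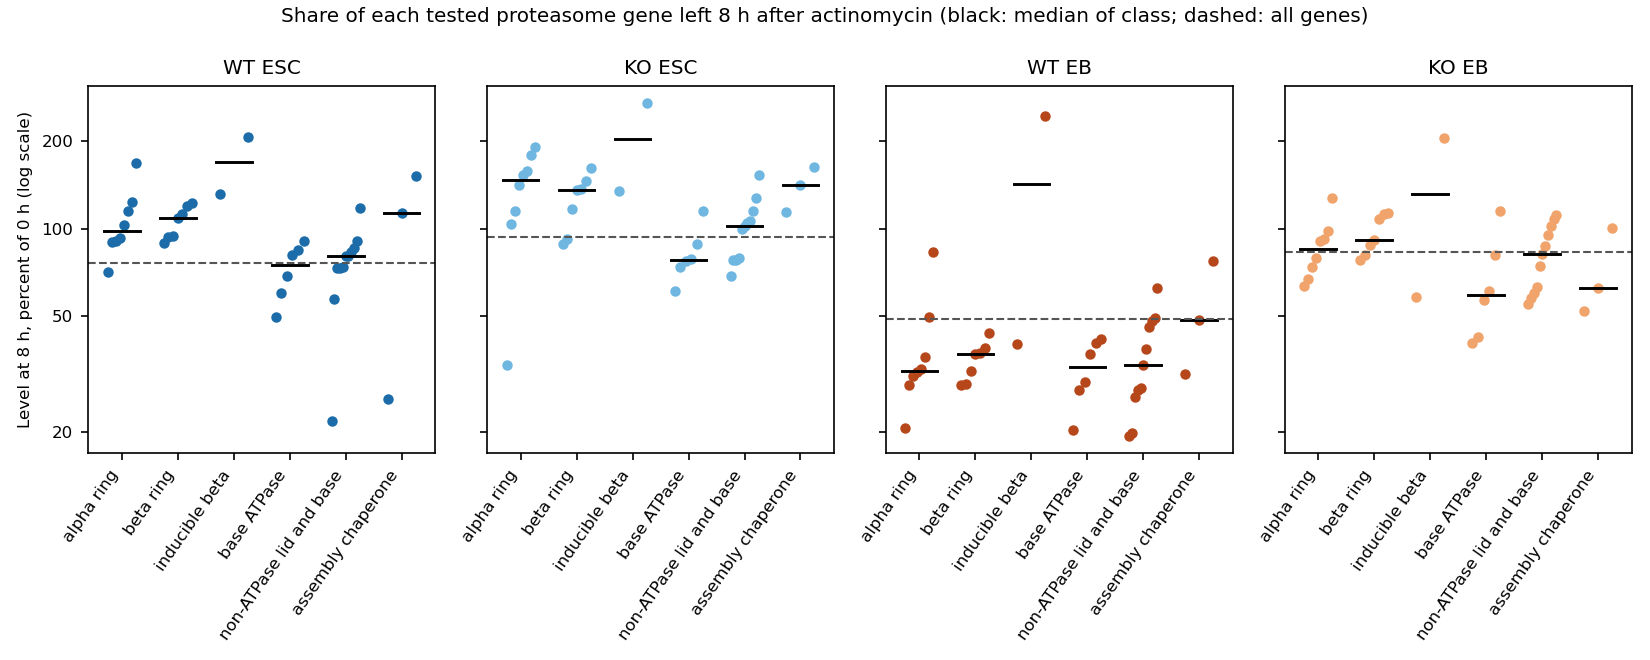
Percent of the 0 h level left at 8 h for each tested proteasome gene by role, in 4 panels for the 4 conditions, on a log axis, with the class median in black and the all-gene median dashed. On the deposited scale the WT EB panel is shifted down for nearly all genes, and the ATPase median lies below the constitutive beta median in each panel.

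The roles differed in the share left. The median for constitutive beta genes was 109% in WT ESCs, 136% in KO ESCs, 37.0% in WT EBs and 91.1% in KO EBs. For the ATPase genes it was 74.8%, 78.1%, 33.4% and 59.1%, lower than for the beta genes in each condition. Alpha genes had 98.0%, 147%, 32.5% and 85.3%, and non-ATPase genes 80.4%, 103%, 34.0% and 81.8%. These class medians carry no test.

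By the slope averaged over the 4 conditions, 13 of 37 members fell and 0 rose by limma, where 21.7% of all genes were called, 21.4% falling and 0.236% rising. The member median was -0.04 log2 per hour, beside -0.05. The calls took in 4 of 6 ATPase genes, 5 of 11 non-ATPase genes, 2 of 8 alpha genes, 1 of 7 constitutive beta genes and 1 of 3 chaperone genes. After Psmd7, the steepest were the ATPase genes Psmc2, at -0.14 ± 0.03 (adjusted p = 0.00271), and Psmc6, at -0.14 ± 0.03 (adjusted p = 0.0027). Psmc2 read 1958, 1499.7 and 1175 in WT ESCs, 1145, 1048 and 901 in KO ESCs, 1631, 460.4 and 331 in WT EBs, and 756, 685 and 322 in KO EBs. Psmc6 read 1615, 1066 and 801, then 987, 692 and 765, then 1247, 453 and 347, and then 807, 479 and 327 in the same order. Psmc2 went down at each step in all 4 conditions, and Psmc6 did so but for the last step in KO ESCs. The other calls were Psma2, Psma6, Psmb1, Psmc3, Psmc5, Psmd4, Psmd5, Psmd6, Psmd11 and Psmd14. The count of 13 was 3 with equal column totals, 1 with median-ratio scaling and 3 without both EB libraries of 8 h, and Psmd7 lost its call only in the last of these (-0.14, adjusted p = 0.051). Leaving out 1 library at a time brought it to between 3 and 13, and it was under 9 without the 0 h or 8 h library of either ESC genotype or of KO EBs, or the 8 h library of WT EBs.

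The assembly chaperone gene Psmd5 also had a genotype gap in the share left in ESCs. It read 805, 357 and 209 in WT ESCs, against 518, 704 and 591 in KO ESCs, which leaves 25.9% in WT and 114% in KO. In EBs it read 363, 127 and 177 in WT and 463, 210.2 and 241 in KO, with 48.6% and 52.1% left. The genotypes overlapped in both cell types. The slope of Psmd5 differed between KO and WT ESCs by 0.26 ± 0.11 log2 per hour and did not pass (adjusted p = 0.426). No member passed this slope test in ESCs by limma, where 0.0394% of all genes were called, and 2 (5.41%) had an unadjusted p under 0.05, beside 9.98% of all genes. Psmd9, which encodes another such chaperone, read 491, 568 and 554 in WT ESCs, 370.1, 166 and 524 in KO ESCs, 357, 160.0 and 277 in WT EBs, and 198, 129 and 123 in KO EBs.

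On the deposited scale the slopes in EBs tended to be less negative in KO than in WT, with no member reaching the threshold. By limma 0 of 37 were called, where 1.19% of all genes were called, and 18 (48.6%) had an unadjusted p under 0.05, beside 16.9% of all genes. The median difference was 0.15 log2 per hour, beside 0.08 for all genes, and it turned to -0.012 with ribosomal protein scaling. The largest were Psma5, at 0.24 ± 0.07 (adjusted p = 0.0758), and Psmd12, at 0.23 ± 0.08. Between cell types in WT the slopes of Psma7 (-0.28 ± 0.06, adjusted p = 0.0421), Psma2 (-0.26 ± 0.05, adjusted p = 0.0421) and Psmb4 (-0.24 ± 0.06, adjusted p = 0.0492) were lower in EBs than in ESCs, where 2.13% of all genes were called, 0.0708% higher and 2.06% lower. None of the 3 was called with any other scaling, and leaving out any 1 ESC or KO EB library, or the 8 h WT EB library, removed all 3 calls. In KO no member was called for a slope difference between cell types by limma, as was 0% of all genes, and 2 (5.41%) had an unadjusted p under 0.05, beside 3.57% of all genes.

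The inducible beta genes were low or at 0, apart from Psmb10. Psmb10 read 394, 553 and 813 in WT ESCs, 853, 1103 and 1146 in KO ESCs, 274, 296 and 110.1 in WT EBs, and 391, 327 and 229 in KO EBs. Its KO ESC libraries were all above its WT ESC libraries, but the log2 difference of 0.86 ± 0.30 did not pass (adjusted p = 0.0695). Psmb9 read 49.1, 104 and 64.8 in WT ESCs, 18.6, 44.5 and 50.4 in KO ESCs, 86.5, 60.5 and 211 in WT EBs, and 36.7, 37.3 and 75.1 in KO EBs, with a KO minus WT difference of -0.83 ± 0.57 (adjusted p = 0.378) in ESCs and -1.02 ± 0.57 (adjusted p = 0.356) in EBs. Psmb8 was at 0 in all 6 ESC libraries and in both EB libraries of 8 h, and read 73.5 and 36.4 in WT EBs and 9.55 and 21.5 in KO EBs at 0 and 4 h. Psmb11 was at 0 in 9 libraries and read 25.8 in the 8 h KO ESC library, 63.3 in the 8 h WT EB library and 10.4 in the 4 h KO EB library. If the level taken for 1 read holds, a count of 0 allows up to 68.9 to 98.2 in ESC libraries and 31.8 to 52.8 in EB libraries (3 reads). Psmb8 and Psmb11 did not pass the filter on low levels and were not tested.

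The low levels were set beside the background of the libraries. Of 1421 entries from gene families that should be silent in such cells, 6.69% to 9.50% were above 0 in the ESC libraries and 26.7% to 36.2% in the EB libraries. The 95th percentile of these silent entries was 18.8 to 30.7 in ESCs and 44.1 to 71.8 in EBs, and each low value was compared with the percentile of its own library. Psmb9 was above it in 6 of 6 WT libraries and in 3 of 6 KO libraries. Psmb8 was above it in untreated WT EBs alone (73.5 beside 44.7), and Psmb11 in KO ESCs at 8 h alone (25.8 beside 25.2). The 9 interferon response genes summed to 760 to 1552 over the libraries. The 6 blood and immune markers summed to 4631 to 5897 in WT ESCs and to 582 to 1857 elsewhere. Laptm5 made up nearly all of that sum, with 5859.9 in untreated WT ESCs, while Cd52 was at 0 in the untreated libraries except KO EBs, at 28.9.

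Few other genes of the pathway were called between genotypes. Of 36 tested genes for activators, chaperones, shuttling factors, ubiquitin precursors and transcription factors, 2 were higher and 1 lower in KO than in WT ESCs, with a median of -0.08. That share is no larger than the 14.1% called over all genes. Psmg3, a chaperone of core assembly, was higher by 2.51 ± 0.47 (log2), with 534, 551 and 475 in KO ESCs against 529, 164 and 0 in WT ESCs. In the 8 h WT ESC library, where it was at 0, the level taken for 1 read was 32.7, although lower values occur there. The size of this difference therefore depends on the pseudocount. The Psmg3 genotypes were alike before actinomycin and apart after it. Nfe2l2, a stress-responsive transcription factor, was higher by 1.75 ± 0.47, and Psmg1, the partner of Psmg2 in core assembly, was lower at -1.32 ± 0.29. Nfe2l1, the transcription factor that raises proteasome gene transcription when proteasome activity is low, differed by 0.10 ± 0.27 in ESCs and 0.80 ± 0.27 in EBs and did not pass in either (adjusted p = 0.0791 in EBs). Pomp, the core maturation factor, differed by -0.37 in ESCs and -0.09 in EBs. None of the activator genes Psme1 (-0.07 and 0.36), Psme2 (-0.16 and -0.48), Psme3 (0.09 and 0.14) and Psme4 (-0.55 and -0.32) passed in ESCs or EBs.

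In EBs the pathway genes higher in KO were Ubb (0.90) and Rps27a (0.54), both ubiquitin precursors, and 0 were lower, where 7.66% of all genes were higher and 1.56% lower. Ubb read 5097, 2269 and 608 in WT EBs, against 4313, 4338 and 2483 in KO EBs, and Rps27a 15080.3, 9244 and 5424 against 12302, 13685 and 13776. The KO value of both genes was the smaller one at 0 h and the larger one at 4 and 8 h. Between EBs and ESCs in WT 22 of 36 pathway genes were lower and 0 higher, where 29.1% of all genes were lower and 3.49% higher. The lower ones took in the shuttling factor gene Ubqln4 (-2.07), Ubb (-1.77), the inhibitor gene Psmf1 (-1.75), the deubiquitinase genes Usp14 (-1.70) and Uchl5 (-1.50), the activator gene Psme4 (-1.69), the small lid subunit gene Sem1 (-1.60) and Pomp (-1.26). In KO 17 were lower and 0 higher, where 23.2% of all genes were lower and 0.929% higher, led by Nfe2l2 (-1.49), Psme4 (-1.47) and Uchl5 (-1.44). The mean slope fell for 15 of 36, where 21.4% of all genes fell, led by Akirin2 (-0.38), which encodes a factor for proteasome import into the nucleus, and Zfand5 (-0.29).

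The promoters were searched for TGACNNNGC, a loose form of the element that Nfe2l1 and Nfe2l2 bind. The windows run from 250 bases before to 50 bases after the start site in RefSeq's GRCm38.p6 annotation and were found for 32 members. The motif was present on either strand in 5 of 32 (15.6%), beside 14.0% of 27025 genes. Those genes were not limited to the ones tested for level, here and for the other motifs below. The 3 members with a match in the last 60 bases before the start are shown for those bases, read on the gene's strand, with the match in capitals. Their windows are chr14:54617996-54618055 (minus strand) for Psmb5, chr11:70525297-70525356 (plus strand) for Psmb6 and chr5:123228130-123228189 (plus strand) for Psmd9.
Psmb5: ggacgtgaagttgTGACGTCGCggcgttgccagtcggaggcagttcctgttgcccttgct
Psmb6: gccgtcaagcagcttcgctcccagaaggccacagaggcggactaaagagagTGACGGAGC
Psmd9: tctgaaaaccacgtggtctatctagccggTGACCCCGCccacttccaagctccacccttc
The other 2 matches lay farther out, in Psmc6 and Psmd12. The box CCAAT, bound by NF-Y, was found in 13 of 32 (40.6%), beside 41.1% of genes, and GGGCGG, bound by Sp1, in 19 of 32 (59.4%), beside 38.2%. A match is a description of the letters and not a binding site.

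Some values carry uncertainty of assignment. Psma3, Psma4, Psma6, Psmb5, Psmb7, Psmc5, Psmd1, Psmd10 and Psmd13 overlap another annotated gene, and whether counting used strand is not stated, so reads of the partner cannot be told apart. For Psma4, called in EBs, the partner is AY074887.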

How the data were processed

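The table deposited by the authors gives a normalized signal, never below 0, for each RefSeq transcript in 12 libraries, and was used without conversion. According to the labels' protocols, poly(A) 3′ ends were selected and the strand was kept. The submitters' processing notes list mm10, Bowtie2 2.1.0, Bowtie and CASAVA 1.8.2. The method of counting and scaling is not given in the sources used. Groups came from the sample titles, with 1 library per genotype, cell type and time. Of 19746 entries 38 identical duplicates were dropped, and RefSeq IDs were matched to symbols for 19535 entries in the RefSeq gene table and 98 more in GENCODE. Read equivalents were inferred by taking the smallest of the 3 commonest values under 100 in each library as 1 read. They set the Poisson 95% intervals, which are approximate because some values lie below that level. The intervals cover counting error only because PCR copies were not told apart.

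A pseudocount of 8.58 (1 ppm of the average column total) was added before taking log2, and limma 3.58.1 (R 4.3.3) was run on 12704 genes whose mean level reached 42.9 (5 ppm), 37 of the 39 members among them. Fold changes are on this log2(level + pseudocount) scale, which shrinks those of low genes. A mean and a straight line over hours were fitted for each of the 4 conditions, which leaves 4 residual degrees of freedom and a variance prior worth 11.1 more. The spread is thus the scatter around those lines. Nothing says that the libraries come from separate cultures, so p-values measure only the spread between these libraries, which may be technical. Level differences are means over the hours and mix untreated level with decay. The p-values were adjusted by Benjamini-Hochberg over all genes tested and called under 0.05. Errors are standard errors from limma. The script was tested on simulated data. Comparisons within a genotype or cell type share libraries with one another.

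The members and gene lists were chosen with earlier results of these data known. Full values are given for members called in a comparison, the highest and lowest, the catalytic genes and those with the largest differences, up to about 25 genes, and the rest by range. The pathway list has 37 names matched by current symbol, of which Paaf1 was not matched, and 1 further gene of it is not reported here. Marker lists for mesoderm and heart, neural and fibroblast cells were read but bear on no result here. Alternatives were 3 scalings, 2 pseudocounts, 2 filters, no variance trend and additive time. The level was also read at 0 h on the fitted lines, and each library or both EB libraries of 8 h were left out. A condition without its 0 h or 8 h library has its level read from the 4 h library alone, no longer a mean over the hours. Such fits are also less precise, so a lost call does not show that the difference over all hours is absent.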

Additional observations from a re-analysis of the deposited data

Results flagged for a closer look

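The change per hour after actinomycin differed between EBs and ESCs in WT for 3 proteasome genes by limma's test of the difference. Psma7, an alpha ring gene, had an EB minus ESC slope difference of -0.28 log2 per hour, with 7801, 7056 and 2824 in WT EBs at 0, 4 and 8 h and 8179.6, 13368 and 13782 in WT ESCs. Psma2, also of the alpha ring, had -0.26, and Psmb4, of the beta ring, had -0.24. Psma2 and Psma7 kept the call in 4 of 21 alternatives each and Psmb4 in 3 of 21. Those that kept it were the wider pseudocount, the stricter filter and leaving out the 4 h WT EB library, and for both alpha genes also leaving out the 0 h WT EB library. None of the 3 was called under another scaling of the columns.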

How the results depend on the processing

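No paired analysis was possible because each group has 1 library and the labels give no replicate numbers. Summing entries per symbol leaves the values as they are, since each member has 1 entry. Depth limits Psmb8, Psmb9 and Psmb11 most. Over all alternatives, calls of single genes were unchanged in direction and side of the threshold 1201 times, lost 643 times and reversed 10 times. Where a value below differs from that of the report and no scaling is named, the cause was not tested. Calls, turned medians and reversals at 0 h below are read on the fitted lines, not from the 0 h libraries alone. The 0 h medians of the last paragraph come from the 0 h libraries. Levels fitted without the 0 h or 8 h library of a condition rest on its 4 h library alone and are less precise.

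The 4 members called between KO and WT ESCs became 2 without a filter, 10 with median-ratio scaling, 1 without the variance trend or with additive time terms, and 0 at 0 h, and 1 to 6 when 1 library was left out. The 2 called in EBs became 1 with median-ratio and 5 with ribosomal protein scaling, 0 with additive time terms, at 0 h, with no variance trend or without both EB libraries of 8 h, and 0 to 2 with 1 library left out. The 33 called between EBs and ESCs in WT became 6, 14 and 7 with equal totals, median-ratio and ribosomal protein scaling, 1 at 0 h, 21 without both EB libraries of 8 h and 24 to 34 with 1 library left out. The 27 in KO became 0, 0 and 9 with the same scalings, 0 with no variance trend, 3 with additive time terms, 0 at 0 h, 4 without both EB libraries of 8 h and 2 to 28 with 1 left out, with 2 on leaving out the 0 h or 8 h KO EB library and 10 or 11 on leaving out the 8 h or 0 h KO ESC library. The 0 members whose genotype effect differed between cell types became 1 with the wider pseudocount, 3 with the stricter filter, 1 with ribosomal protein scaling and 0 to 2 with 1 library left out, the 2 without the 4 h WT EB library. The 13 falling mean slopes became 3 with equal totals, 1 with median-ratio scaling, 3 without the variance trend or without both EB libraries of 8 h, and 3 to 13 with 1 left out. The 3 slopes differing between cell types in WT became 12 with the stricter filter, 0 with the narrower pseudocount, no filter, any of the 3 scalings, no variance trend or no EB libraries of 8 h, and 0 to 5 with 1 left out, 5 without the 4 h WT EB library. The 0 slope calls between genotypes in EBs became 4 with the stricter filter and 0 to 1 with 1 left out, 1 without the 0 h or the 4 h WT EB library. Slope calls between genotypes in ESCs, and between cell types in KO, were 0 throughout.

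The positive EB median of KO minus WT turned to -0.17, -0.12 and -0.37 with equal totals, median-ratio and ribosomal protein scaling, to -0.49 at 0 h, to -0.04 without the WT EB library of 0 h or of 8 h, and to -0.061 without the 4 h KO EB library, the lowest to highest with 1 library left out being -0.061 and 0.17. The median mean slope turned to 0.015 with median-ratio scaling. Ribosomal protein scaling turned the medians of the interaction to -0.15, of the genotype slope difference in EBs to -0.012 and of the WT slope difference between cell types to 0.040, and the interaction median was -0.00085 at 0 h. Single genes that reversed were Psmc3 between EBs and ESCs in WT (0.066 with equal totals, 0.068 with ribosomal protein scaling) and Psma7 there at 0 h on the fitted lines (0.017). The 0 h libraries of Psma7 read 7801 in WT EBs and 8179.6 in WT ESCs, so these were not reversed. With equal totals and median-ratio scaling in KO the reversed genes were Psmd3 (0.12 and 0.11), Psmc3 (0.026 and 0.014) and Psma1 (0.069 and 0.057). The mean slope of Psma2 was 0.0024 with median-ratio scaling.

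With equal totals, median-ratio and ribosomal protein scaling, the median share left at 8 h was 99.3%, 121% and 75.7% in WT ESCs, 108%, 123% and 85.9% in KO ESCs, 81.9%, 78.0% and 86.0% in WT EBs, and 92.2%, 101% and 78.2% in KO EBs, and without a filter 35.1% in WT EBs. The median share of all genes moved in proportion, so the members' median stayed at 0.739 of it in WT EBs under each scaling. The 0 h medians were -0.33, -0.40 and -0.29 for KO minus WT in ESCs and -0.26, -0.28 and -0.36 in EBs, and for EBs minus ESCs -0.14, -0.18 and -0.33 in WT and -0.057, -0.050 and -0.39 in KO. For KO minus WT at 0 h, the median of all genes was 0.10, 0.04 and 0.15 in ESCs, and 0.03, 0.01 and -0.06 in EBs. For EBs minus ESCs at 0 h it was 0.10, 0.06 and -0.09 in WT and 0.006, 0.012 and -0.31 in KO. For the fitted level over all hours, the median of all genes for KO minus WT moved with scaling too. It went from 0.18 to 0.15, 0.01 and 0.25 in ESCs, and from 0.09 to -0.16, -0.11 and -0.35 in EBs.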
